A study of Populus alba x Populus glandulosa with 12 samples.

Results

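Light-harvesting proteins and photosystem subunits make up the machinery by which leaf chloroplasts capture light, and the transcripts described here are those of their genes in leaves of hybrid poplar. A gene was included if the description of its paired Arabidopsis gene named light harvesting, a photosystem, a chlorophyll a/b protein, an early light-induced protein or the oxygen-evolving complex. This took in 130 of the 34749 genes in the table. By paired Arabidopsis locus, 10 encode antenna proteins of photosystem I, 27 encode core subunits of photosystem I and 15 encode antenna proteins of photosystem II. Another 45 encode core subunits of photosystem II, with the oxygen-evolving subunits and PSBS counted among them, and 7 encode early light-induced proteins (ELIPs) and their relatives. The remaining 26 are assembly factors, PsbP-like proteins and others taken in by their description. Of the 130, 92 are paired with Arabidopsis genes of the nucleus, at 51 distinct loci, and 38 with genes of the plastid genome.

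The study measured leaf RNA of *Populus alba* × *P. glandulosa* in 12 libraries, 4 from nontransgenic controls and 4 from each of line 2 and line 7, in which PagSUPa, a C2H2 zinc finger protein, is overexpressed (OE). Its title places the protein in leaf development through PHRAGMOPLAST ORIENTING KINESIN and cell division. The labels name neither the promoter of the transgene nor plant age or leaf position, and each OE group is a single line. All 12 column headers end in the same tag, an L with a number, whose meaning is not given. Since separate plants are not stated for the replicates, the p-values cover only the variation among these libraries, and that could be technical.

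In the thylakoid membrane, antenna proteins bind chlorophyll and carotenoids and pass the absorbed energy to the reaction centres. Photosystem II uses it to take electrons from water, with the manganese cluster held by the oxygen-evolving subunits, and photosystem I uses it to reduce ferredoxin. Antenna proteins of photosystem II carry the letters LHCB, those of photosystem I LHCA, and the core subunits PSB and PSA. ELIPs belong to the same protein family, are induced by strong light and other stress in Arabidopsis, and are thought to protect the membrane while pigment proteins are built or taken down.

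Values are TPM, the length-corrected share of a gene in its library's transcripts, and the sequencing depth behind them is unknown. A gene was tested if it reached 1 TPM in at least 4 of the 12 libraries, which 104 of the 130 did. The 26 others never exceeded 2.24 TPM. Changes are differences of log2(TPM + 1), which understate the change of genes with low TPM, and a change was called at an adjusted p under 0.05. Over all 24926 tested genes the median change of the pooled OE lines against the controls was -0.13, and it was 0.02 after the libraries were rescaled by their median ratio. Control replicates 1 and 2 stood apart from the rest in that rescaling, with factors of 1.23 and 1.21 beside 0.883 to 1.06 in the other libraries. Counts without these 2 libraries are therefore given beside the first results. Mesophyll markers of the Rubisco small subunit, Rubisco activase and carbonic anhydrase summed to 37188 to 46418 TPM in the controls and 20887 to 48919.7 TPM in the OE libraries, so leaf markers were abundant in each library.

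The 130 genes together held a smaller share of the leaf transcriptome in every OE library than in any control. Their summed TPM, as a share of all TPM, was 19.4, 17.4, 19.9 and 20.2% in the controls, 15.5, 10.3, 13.3 and 8.25% in line 2 and 12.3, 11.6, 11.5 and 12.7% in line 7. The lowest control lay above the highest OE library, which was line 2 replicate 1. The mean was 11.9% ± 3.22 in line 2 and 12.004% ± 0.577 in line 7 (SD, n = 4 each), beside 19.2% ± 1.23 in the controls (SD, n = 4). In bulk leaf RNA, fewer cells of a type and less RNA per cell cannot be told apart.

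Gene by gene, the mean of line 2 and line 7 was set against the controls, and "lower" and "higher" refer to this pooled comparison unless a line is named. In it 60 of the 104 tested genes were lower and 10 were higher. Among all tested genes, 34.0% were lower and 22.1% higher (56.1% in either direction), so the share that fell here, 57.7%, stood above the background and the share that rose, 9.62%, below it. The median change was -0.62, beside -0.13 over all tested genes. In 43 of the genes all 8 OE libraries lay below all 4 controls, which held for 19.1% of all tested genes, and in 5 they lay above, beside 14.6%. A fall by at least 1 on the log2 scale was called in 20 of the 104, beside 10.9% of all tested genes. Of the 1389 tested genes with a mean of at least 100 TPM, 20.5% were lower and 37.9% higher, while 46 of the 67 photosystem and antenna genes above that level were lower and 4 were higher. The difference between these shares was not tested. After median ratio scaling, 41 of the 60 falls and all 10 rises were kept, beside 27.2% lower and 30.1% higher among all genes. Without control replicates 1 and 2, 35 falls and 5 rises were kept, beside 12.6% lower and 15.8% higher among all genes.

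Each line was also set against the same 4 controls. In line 2, 52 genes were lower and 7 higher, beside 32.4% and 18.8% of all tested genes (51.2% in either direction). In line 7, 46 were lower and 9 higher, beside 24.8% and 18.9% (43.8% in either direction). The median changes were -0.62 and -0.57. In each line on its own, 46 genes were lower in both tests and 6 were higher in both, and these tests share their controls. The like share of all tested genes was not counted, so these counts have no background beside them. No gene of the 104 differed between line 7 and line 2 by limma at an adjusted p under 0.05, and 0.0% of all tested genes did. At an unadjusted p under 0.05, 1 of the 104 genes, the ELIP homolog Potri.008G157900, and 418 of all tested genes differed between the lines.

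**Figure D1:**
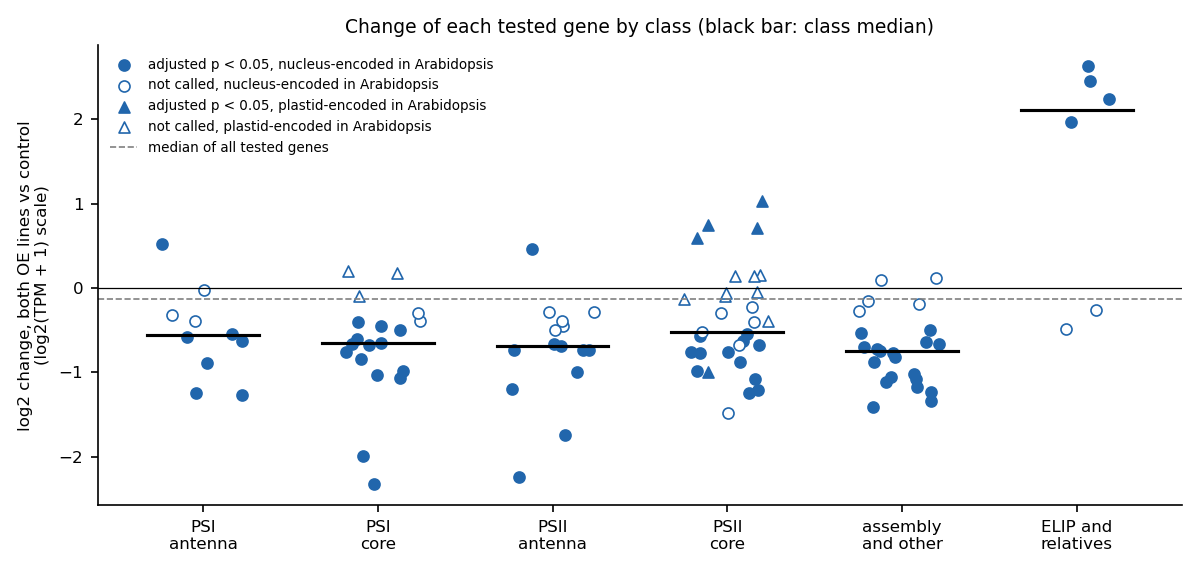
Each point is 1 tested gene, placed by class, with the log2 change of the pooled OE lines against the controls on the vertical axis (log2(TPM + 1) scale). Filled points passed an adjusted p under 0.05, marker shape separates genes paired with nuclear and plastid Arabidopsis genes, black bars are class medians and the dashed line is the median of all tested genes, -0.13. The antenna, core and assembly medians lie below that line, and the 4 ELIP homologs lie at the top.

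**Figure D2:**
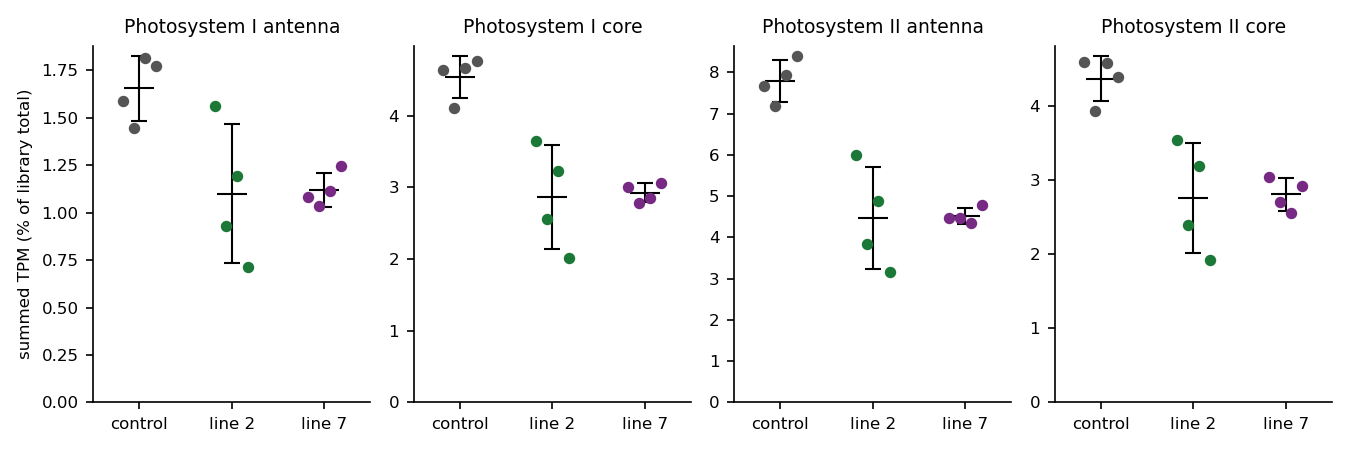
Summed TPM of 4 classes as a percentage of all TPM, in each of the 12 libraries, with the mean and SD of each group (n = 4). Vertical axes start at 0. The OE libraries lie below the controls except in the photosystem I antenna, where line 2 replicate 1 at 1.56% lies above the lowest control at 1.45%.

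Other measured features of the leaves moved with these counts. Of 7 tested xylem markers 6 were lower, of 4 guard cell markers 2 were lower, of 3 phloem markers 2 were lower, and both tested markers of epidermis and both of dividing cells were lower, beside 34.0% of all tested genes. In line 7 alone, none of the epidermis or dividing-cell markers passed, and in line 2 alone both epidermis markers and 1 of the dividing-cell markers did. Summed xylem markers were 111 to 208 TPM in the controls and 8.79 to 71.8 TPM in the OE libraries. Summed guard cell markers were 96.1 to 131 and 64.1 to 92.6 TPM, and phloem markers 39.3 to 55.1 and 23.1 to 33.9 TPM. Epidermis markers summed to 116, 13.7, 0.884 and 4.61 TPM in the controls, with replicate 1 far above the rest, and between 0 and 5.53 TPM in the OE libraries. Dividing-cell markers were 7.79 to 30.1 and 2.41 to 13.03 TPM. Metallothionein transcripts took 0.965 to 3.37% of all TPM in the controls and 3.14 to 9.59% in the OE libraries. The part of these features in the results was not tested. Of the 6 tested mesophyll markers none was lower and 1 was higher, and their summed level overlapped between the groups. The ratio of photosystem and antenna transcripts to the mesophyll markers was 4.18 to 4.85 in the controls and 2.81 to 4.18 in the OE libraries, whose ranges met.

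The antenna of photosystem II was the most abundant of the classes. Of its 15 genes, 9 were lower and 1 was higher, beside 34.0% and 22.1% of all tested genes. The class had a median change of -0.69. Its summed TPM, as a share of all TPM, was 7.67, 7.18, 7.94 and 8.39% in the controls, 5.995, 3.84, 4.88 and 3.16% in line 2 and 4.46, 4.48, 4.36 and 4.79% in line 7. All 8 OE libraries lay below the controls. LHCB1 and LHCB2 form the mobile trimers that surround photosystem II, and both were represented by several copies that differed in their response.

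Potri.005G239200, an LHCB1 homolog and the most abundant of all members, was measured at 18008, 17383, 18924 and 19806 TPM in the controls, 11969, 8026, 9575 and 7272 TPM in line 2 and 8851, 10145, 8878 and 10371 TPM in line 7. All OE libraries lay below all controls, and the change was -0.99 (SE 0.19, limma adjusted p = 0.00149). Potri.002G189300, another LHCB1 homolog, was measured at 4820.0, 5934, 5485 and 7430.2 TPM in the controls, 2425, 690.1, 1389 and 485 TPM in line 2 and 1351, 1579, 1288 and 1795 TPM in line 7. It was lower in all OE libraries, with a change of -2.24 (SE 0.36, limma adjusted p = 0.000499). The other 2 LHCB1 homologs, Potri.005G239300 and Potri.011G079500, did not pass the test, with changes of -0.40 (SE 0.19, limma adjusted p = 0.093) and -0.29 (SE 0.21, limma adjusted p = 0.251). Potri.005G239300 passed as lower with a pseudocount of 5, a filter at a mean of 5 TPM or no trend in eBayes (limma adjusted p of 0.0196 to 0.0472). Copies of 1 gene may share sequence, so the division of reads among these 4 by Salmon is uncertain. Their sum, on which that division bears less, was 4.21, 4.02, 4.32 and 4.76% in the controls, 3.40, 2.21, 2.72 and 1.87% in line 2 and 2.48, 2.62, 2.43 and 2.70% in line 7 as a share of all TPM, again without overlap. The Potri.005G239200 call was lost with no filter on low values (limma adjusted p = 0.17).

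The LHCB2 copy Potri.014G165100 was measured at 6629, 7071, 7647 and 8427 TPM in the controls, 2830.2, 1568, 2222 and 1620.0 TPM in line 2 and 1991, 2484, 2605 and 2762 TPM in line 7. It changed by -1.75 (SE 0.19, limma adjusted p = 4.67e-05), and no OE library reached a control. The LHCB2 copy Potri.002G221400 stood at 6282 ± 778 TPM in the controls (SD, n = 4) and 4643 ± 787 TPM in the OE libraries (SD, n = 8), and its change of -0.45 (SE 0.19, limma adjusted p = 0.0582) did not pass. This copy passed as lower with a pseudocount of 5, a filter at a mean of 5 TPM or no trend in eBayes or without line 2 replicate 1 (limma adjusted p of 0.0222 to 0.0401). Both copies of LHCB3, the further trimer subunit, were lower. The changes were -0.66 (SE 0.24, limma adjusted p = 0.0349) for Potri.001G407100 and -0.73 (SE 0.19, limma adjusted p = 0.00777) for Potri.011G126700. Among the minor antenna proteins, which link the trimers to the core, the LHCB4 copy Potri.006G099500 changed by -1.20 (SE 0.19, limma adjusted p = 0.000507) and Potri.016G115200 by -0.73 (SE 0.21, limma adjusted p = 0.0129). The LHCB4.3 copy Potri.008G067300 and the LHCB6 homolog Potri.001G210000 did not pass, with changes of -0.49 and -0.29. LHCB5 was split, since Potri.019G063100 fell by 0.69 on the log2 scale (limma adjusted p = 0.0118) while the less abundant Potri.T099400 rose. This copy was measured at 109, 118, 111 and 132 TPM in the controls, 109, 161, 207 and 124 TPM in line 2 and 197, 165, 162 and 197 TPM in line 7. All line 7 libraries lay above the controls, line 2 replicates 1 and 4 lay within their range, and the change was 0.46 (SE 0.16, limma adjusted p = 0.0284). The Potri.T099400 call was lost under 7 of 21 alternatives, at limma adjusted p of 0.0502 to 0.184, and 4 of these leave out a single library (control replicate 1, 2 or 3, line 2 replicate 2). The Potri.001G407100 call was lost under 12 of 21 alternatives, at limma adjusted p of 0.0529 to 0.153, and 8 of these leave out a single library (control replicate 1, 2, 3 or 4, line 2 replicate 2, line 7 replicate 2, 3 or 4). The Potri.016G115200 call was lost with no filter on low values, median ratio scaling or control replicates 1 and 2 left out (limma adjusted p of 0.0658 to 0.0685). The Potri.019G063100 call was lost with median ratio scaling or control replicates 1 and 2 left out (limma adjusted p of 0.0598 to 0.101).

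Of the 10 photosystem I antenna genes, 6 were lower and 1 was higher, beside 34.0% and 22.1% of all tested genes. The 10 genes had a median change of -0.56. Their summed TPM, as a share of all TPM, was 1.59, 1.45, 1.81 and 1.77% in the controls, 1.56, 0.927, 1.19 and 0.715% in line 2 and 1.08, 1.04, 1.11 and 1.25% in line 7. Line 2 replicate 1 reached into the range of the controls, so the groups overlapped in this class. LHCA1 to LHCA4 form the belt on one side of the photosystem I core. LHCA4, Potri.015G062200, was measured at 2009, 1860.0, 2287 and 2283 TPM in the controls, 1489.7, 878, 1331 and 666 TPM in line 2 and 1158, 1187, 1203 and 1414 TPM in line 7. All OE libraries were lower, and the change was -0.89 (SE 0.21, limma adjusted p = 0.00405). The most abundant copies of LHCA3, Potri.014G172400, and LHCA1, Potri.010G221100, changed by -0.55 (SE 0.21, limma adjusted p = 0.0451) and -0.58 (SE 0.21, limma adjusted p = 0.0384). Both lie near the threshold. The LHCA3 call was lost under 14 of 21 alternatives, at limma adjusted p of 0.0527 to 0.247, and 10 of these leave out a single library (control replicate 1, 2, 3 or 4, line 2 replicate 2 or 4, line 7 replicate 1, 2, 3 or 4). The LHCA1 call was lost under 13 of 21 alternatives, at limma adjusted p of 0.0541 to 0.186, and 9 of these leave out a single library (control replicate 1, 2, 3 or 4, line 2 replicate 2, line 7 replicate 1, 2, 3 or 4). The less abundant LHCA1 copy Potri.008G041000 changed by -1.27 (SE 0.38, limma adjusted p = 0.0159). The Potri.008G041000 call was lost with control replicates 1 and 2 left out (limma adjusted p = 0.0838).

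LHCA5, which in Arabidopsis helps to join photosystem I to the NDH complex, was represented by Potri.014G029700, measured at 75.9, 53.7, 47.1 and 49.2 TPM in the controls, 30.1, 16.2, 35.1 and 12.1 TPM in line 2 and 29.2, 26.8, 16.8 and 26.5 TPM in line 7. The OE libraries were all lower, with a change of -1.24 (SE 0.27, limma adjusted p = 0.00276). The LHCA5 call was lost with control replicates 1 and 2 left out (limma adjusted p = 0.0573). LHCA6, Potri.006G139600, which has a like role there, did not pass at -0.32. Of 3 LHCA2 copies, Potri.003G171500 changed by -0.63 (SE 0.15, limma adjusted p = 0.00451), Potri.001G056700 by -0.02 without passing, and Potri.T147200 rose by 0.52 (SE 0.18, limma adjusted p = 0.0267). The last stood at 21.003 ± 2.45 TPM in the controls (SD, n = 4) and 31.4 ± 7.21 TPM in the OE libraries (SD, n = 8). The Potri.T147200 call was lost with control replicates 1 and 2 left out and in fits without control replicate 1, 2 or 3 (limma adjusted p of 0.0587 to 0.206).

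In the photosystem I core, 14 of the 16 genes paired with nuclear Arabidopsis genes were lower (87.5%) and none was higher. These shares stood beside 34.0% and 22.1% of all tested genes. The 16 genes had a median change of -0.67, beside -0.13 over all tested genes. Their summed TPM, as a share of all TPM, was 4.64, 4.11, 4.67 and 4.76% in the controls, 3.65, 2.56, 3.23 and 2.02% in line 2 and 3.001, 2.78, 2.85 and 3.07% in line 7, without overlap. PSAF, a subunit near the site where plastocyanin docks, had the largest fall of the class. Its copy Potri.003G148900 was measured at 1168, 1234, 979 and 1085 TPM in the controls, 233, 109.9, 288 and 245 TPM in line 2 and 228, 250.2, 368 and 151 TPM in line 7. The highest OE library stayed below the lowest control, and the change was -2.32 (SE 0.27, limma adjusted p = 6.47e-05). The more abundant PSAF copy Potri.001G081500 changed by -1.07 (SE 0.19, limma adjusted p = 0.000842).

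PSAL and PSAO lie on the side of the core where mobile LHCII binds, as does PSAH. The PSAL copy Potri.002G239700 was measured at 677, 629.6, 602 and 636 TPM in the controls, 274, 95.2, 199.6 and 50.8 TPM in line 2 and 204, 229.6, 157 and 209 TPM in line 7. It was lower in all OE libraries, with a change of -1.99 (SE 0.35, limma adjusted p = 0.000933), while the other copy, Potri.014G175600, changed by -0.44 (SE 0.16, limma adjusted p = 0.0374). The Potri.014G175600 call was lost under 13 of 21 alternatives, at limma adjusted p of 0.0501 to 0.285, and 8 of these leave out a single library (control replicate 1, 3 or 4, line 2 replicate 2, line 7 replicate 1, 2, 3 or 4). PSAO, Potri.009G160800, was measured at 799, 870.3, 717 and 894 TPM in the controls, 542, 317, 339.6 and 327 TPM in line 2 and 366, 458, 491 and 424 TPM in line 7, a change of -1.03 (SE 0.16, limma adjusted p = 0.000436). PSAH, Potri.003G052500, changed by -0.85 (SE 0.17, limma adjusted p = 0.00199). PSAG and PSAK, which lie next to the antenna belt, changed by -0.65 (SE 0.22, limma adjusted p = 0.0233) for Potri.001G471900 and -0.66 (SE 0.15, limma adjusted p = 0.00304) for Potri.006G254200. The PSAG call was lost with no filter on low values, median ratio scaling, quantile normalization or control replicates 1 and 2 left out and in fits without control replicate 4 (limma adjusted p of 0.0537 to 0.127).

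PSAD and PSAE form the ferredoxin docking site on the stromal side. The PSAE copy Potri.002G253800 changed by -0.99 (SE 0.19, limma adjusted p = 0.00135). The PSAD copy Potri.008G151600 changed by -0.50 (SE 0.19, limma adjusted p = 0.042). The Potri.008G151600 call was lost under 14 of 21 alternatives, at limma adjusted p of 0.0506 to 0.216, and 9 of these leave out a single library (control replicate 1, 2, 3 or 4, line 2 replicate 2, line 7 replicate 1, 2, 3 or 4). The most abundant gene of the class, the PSAD copy Potri.010G089400, stood at 8321 ± 1242 TPM in the controls (SD, n = 4) and 6338 ± 986 TPM in the OE libraries (SD, n = 8) and did not pass (-0.40, limma adjusted p = 0.0959). This copy passed as lower with a filter at a mean of 5 TPM, quantile normalization or no trend in eBayes or without line 2 replicate 1 (limma adjusted p of 0.00954 to 0.0495).

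In the photosystem II core, 12 of the 18 genes paired with nuclear genes were lower (66.7%) and none was higher. These shares stood beside 34.0% and 22.1% of all tested genes. The 18 genes had a median change of -0.72, beside -0.13 over all tested genes. Their summed TPM, as a share of all TPM, was 4.58, 3.93, 4.57 and 4.38% in the controls, 3.54, 2.39, 3.19 and 1.91% in line 2 and 3.04, 2.70, 2.55 and 2.92% in line 7, and the groups did not overlap. The subunits around the manganese cluster, PSBO, PSBP, PSBQ and PSBR, were represented by 10 genes. Of these, 6 were lower (60.0%), beside 34.0% of all tested genes. PSBO, which stabilises the cluster, had an abundant copy, Potri.007G033700, measured at 4504, 3976, 4120.4 and 4139 TPM in the controls, 2392, 1488, 1727 and 1255 TPM in line 2 and 1775, 2010.3, 1933 and 2147 TPM in line 7. All OE libraries were lower, and the change was -1.21 (SE 0.17, limma adjusted p = 0.000257). Its other copy, Potri.005G130400, stood at 1897 ± 109 TPM in the controls (SD, n = 4) and 1628 ± 194 TPM in the OE libraries (SD, n = 8) and did not pass (-0.23, limma adjusted p = 0.178).

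PSBP, which helps to retain calcium and chloride at the cluster, was lower in both copies. Potri.005G206700 was measured at 3884, 3584, 3687 and 3429 TPM in the controls, 2394, 1966, 2268 and 1689.8 TPM in line 2 and 2148, 2093, 2149.8 and 2431 TPM in line 7, without overlap. The changes were -0.77 (SE 0.14, limma adjusted p = 0.00108) for this copy and -0.99 (SE 0.20, limma adjusted p = 0.00205) for Potri.002G055700. The PSBQ copies Potri.004G031500 and Potri.011G031300 were lower as well, with changes of -0.62 (SE 0.21, limma adjusted p = 0.0278) and -0.55 (SE 0.12, limma adjusted p = 0.00284). The Potri.004G031500 call was lost under 10 of 21 alternatives, at limma adjusted p of 0.0501 to 0.156, and 6 of these leave out a single library (control replicate 1, 2, 3 or 4, line 2 replicate 2, line 7 replicate 4). Of 4 PSBR copies only Potri.001G438700 passed, with a change of -0.75 (SE 0.23, limma adjusted p = 0.0156). The PSBR call was lost with no filter on low values or median ratio scaling (limma adjusted p of 0.0713 to 0.0793).

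Among the small membrane subunits, the PSBW copy Potri.002G044300 was measured at 366, 297, 281 and 295 TPM in the controls, 177, 101, 129.6 and 95.3 TPM in line 2 and 141, 145, 138 and 126 TPM in line 7. It was lower in all OE libraries, with a change of -1.25 (SE 0.16, limma adjusted p = 0.000121), while the more abundant copy Potri.005G218800 did not pass (-0.41, limma adjusted p = 0.0871). Potri.005G218800 passed as lower with no trend in eBayes or without line 2 replicate 1 (limma adjusted p of 0.0305 to 0.0466). PSBX, Potri.006G144000, the most abundant gene of the class, changed by -0.57 (SE 0.21, limma adjusted p = 0.0385). The PSBX call was lost under 11 of 21 alternatives, at limma adjusted p of 0.0541 to 0.247, and 7 of these leave out a single library (control replicate 1, 3 or 4, line 2 replicate 2, line 7 replicate 2, 3 or 4). Both PSBY copies were lower, with changes of -0.88 (SE 0.21, limma adjusted p = 0.0051) for Potri.010G052000 and -0.67 (SE 0.16, limma adjusted p = 0.00469) for Potri.008G181900. The Potri.008G181900 call was lost with control replicates 1 and 2 left out (limma adjusted p = 0.0514). PSBS, the sensor of lumen acidity that is needed for rapid quenching of excess light energy, was named after its values were seen. This gene, Potri.002G083500, was measured at 1411, 934, 1294 and 1258 TPM in the controls, 764, 569.6, 863 and 314 TPM in line 2 and 750.3, 601, 432 and 514 TPM in line 7. No OE library reached a control, and the change was -1.07 (SE 0.26, limma adjusted p = 0.00509).

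The genes paired with plastid-encoded Arabidopsis genes were few among the tested genes and low. Of 38, 16 were tested, 1 was lower and 4 were higher, beside 34.0% and 22.1% of all tested genes. The share of the 16 that rose was thus close to the background, and their median change was 0.14. The summed TPM of the 38 was 0.0173% to 0.0257% of all TPM in the controls and 0.0247% to 0.0386% in the OE libraries. Plastid transcripts mostly lack long poly(A) tails, and reads from the plastid genome and from such copies under Potri identifiers cannot be told apart here, so these values are no measure of plastid transcription. A locus paired with psbJ, Potri.017G066450, was measured at 2.53, 1.76, 2.62 and 2.61 TPM in the controls, 4.77, 9.40, 7.14 and 4.91 TPM in line 2 and 6.33, 4.94, 6.25 and 4.49 TPM in line 7. It was higher in all OE libraries, with a change of 1.03 (SE 0.17, limma adjusted p = 0.000556). A locus paired with psbB, Potri.011G113900, stood at 13.2 ± 2.15 TPM in the controls (SD, n = 4) and 23.4 ± 5.79 TPM in the OE libraries (SD, n = 8) and changed by 0.75 (SE 0.21, limma adjusted p = 0.0107). The psbB call was lost with control replicates 1 and 2 left out (limma adjusted p = 0.0559).

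Among the 26 assembly factors and others, 23 were tested, of which 18 were lower (78.3%) and none was higher. These shares stood beside 34.0% and 22.1% of all tested genes. The 23 genes had a median change of -0.74, beside -0.13 over all tested genes. PSB27 takes part in photosystem II assembly and repair, and its copies Potri.005G206200 and Potri.002G056300 changed by -0.64 (SE 0.21, limma adjusted p = 0.0209) and -1.17 (SE 0.21, limma adjusted p = 0.00103). The Potri.005G206200 call was lost with median ratio scaling or control replicates 1 and 2 left out and in fits without control replicate 1 or 2 (limma adjusted p of 0.0561 to 0.213). HCF136, an assembly factor of photosystem II, changed by -0.50 (SE 0.18, limma adjusted p = 0.0353) at Potri.007G071300. The HCF136 call was lost under 6 of 21 alternatives, at limma adjusted p of 0.0532 to 0.353, and 4 of these leave out a single library (control replicate 1 or 2, line 2 replicate 2, line 7 replicate 3). The 5 kD photosystem II protein Potri.009G052500 changed by -1.12 (SE 0.25, limma adjusted p = 0.00347), and its more abundant relative Potri.001G256900 by -0.53 (SE 0.20, limma adjusted p = 0.0399). The Potri.001G256900 call was lost under 13 of 21 alternatives, at limma adjusted p of 0.0503 to 0.209, and 8 of these leave out a single library (control replicate 1, 2, 3 or 4, line 2 replicate 2, line 7 replicate 2, 3 or 4). Of the PsbP-like genes, Potri.006G034300 changed by -1.34 (SE 0.18, limma adjusted p = 0.000178) and Potri.005G027100 by -0.74 (SE 0.09, limma adjusted p = 8.77e-05). Both copies of CURT1B, also named PSAP, which bends the edges of thylakoid stacks, were lower, with changes of -1.23 (SE 0.22, limma adjusted p = 0.00105) for Potri.002G180400 and -0.82 (SE 0.28, limma adjusted p = 0.0271) for Potri.014G106400. The Potri.014G106400 call was lost with median ratio scaling or control replicates 1 and 2 left out and in fits without control replicate 1, 2 or 3 (limma adjusted p of 0.0539 to 0.136). The PSB28 homolog Potri.002G256400 and the PsbP-like Potri.009G062500 did not pass, with changes of 0.12 and -0.18.

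The ELIP homologs rose, in contrast to the antenna genes to which they are related. All 4, paired with ELIP1 and carrying neighbouring identifiers, were higher in the pooled comparison, beside 22.1% of all tested genes. They were also higher in each line, beside 18.8% of all tested genes in line 2 and 18.9% in line 7. The 4 homologs had a median change of 2.35. The most abundant, Potri.008G158200, was measured at 78.8, 49.7, 46.1 and 66.1 TPM in the controls, 277, 621, 817 and 388 TPM in line 2 and 349, 166, 414 and 261 TPM in line 7. Each OE library lay above each control, and the change was 2.63 (SE 0.31, limma adjusted p = 7.58e-05). In 14.6% of all tested genes all OE libraries lay above all controls, as they did in each of the other 3 ELIP homologs. Their changes were 2.25 (SE 0.31, limma adjusted p = 0.000187) for Potri.008G158000, 1.97 (SE 0.25, limma adjusted p = 0.000128) for Potri.008G157900 and 2.46 (SE 0.26, limma adjusted p = 3.19e-05) for Potri.008G157800. All 4 calls were kept under all 21 alternatives.

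Because the 4 copies may share reads, their sum was also taken. It was 142, 99.3, 90.7 and 137 TPM in the controls, 468, 1011, 1383 and 649.8 TPM in line 2 and 605, 290.5, 650.2 and 478 TPM in line 7, a mean 5.91-fold higher in the OE libraries. Line 2 replicate 3 was the highest library and line 7 replicate 2 the lowest of the OE libraries. For each 1000 TPM of antenna transcripts of both photosystems, ELIP transcripts amounted to 0.930 to 1.53 TPM in the controls and 5.27 to 22.8 TPM in the OE libraries. Potri.008G158200 changed by 3.02 (SE 0.36, limma adjusted p = 0.000112) in line 2 and 2.24 (SE 0.36, limma adjusted p = 0.00089) in line 7. The estimated difference of line 7 from line 2 was -0.78 (95% interval -1.57 to 0.01) for this copy and -0.69 (95% interval -1.33 to -0.05) for Potri.008G157900, and neither passed after adjustment. The LIL3 homologs, related proteins that anchor enzymes of chlorophyll synthesis, were represented by 2 tested genes. Potri.001G151300 and Potri.003G083500 changed by -0.48 (SE 0.20, limma adjusted p = 0.0635) and -0.25 (SE 0.13, limma adjusted p = 0.118), neither of which passed. Potri.001G151300 passed as lower with quantile normalization or the replicate block or without control replicate 4 or without line 2 replicate 3 (limma adjusted p of 0.028 to 0.0476).

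**Figure D3:**
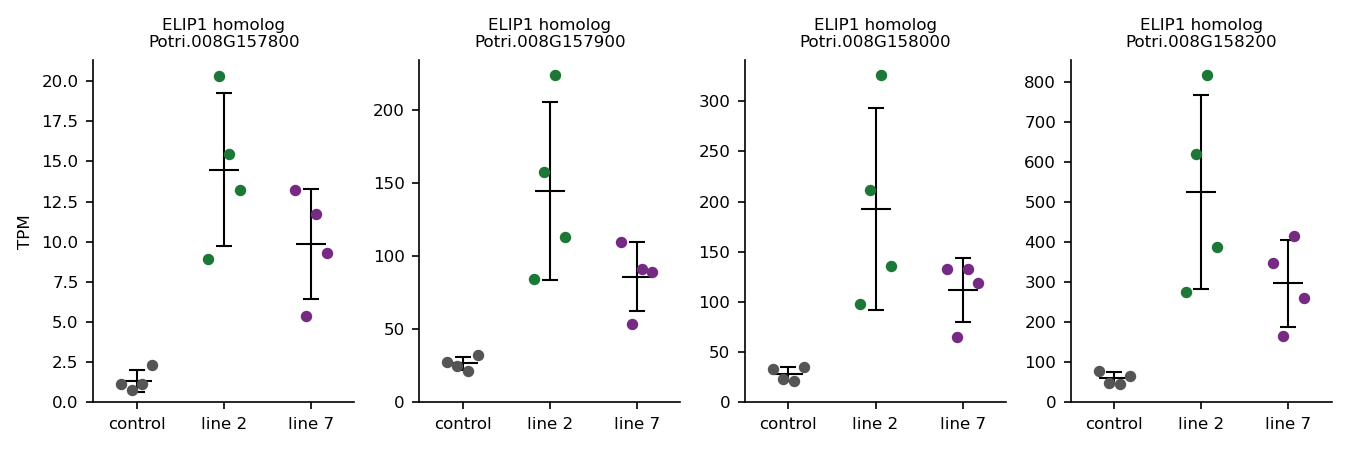
TPM of each ELIP1 homolog in each library, with the mean and SD of each group (n = 4) and a vertical axis from 0 in each panel. In all 4 panels each OE library lies above each control.

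The balance between the photosystems was read from summed levels. The summed TPM of photosystem I, antenna and nucleus-encoded core, divided by that of photosystem II was 0.508, 0.500, 0.518 and 0.511 in the controls, 0.547, 0.560, 0.549 and 0.539 in line 2 and 0.545, 0.533, 0.574 and 0.559 in line 7. All OE libraries lay above the controls, 1.08-fold in the mean. The 2 photosystem II antenna genes with the lowest changes were the LHCB1 copy Potri.002G189300 and the LHCB2 copy Potri.014G165100, singled out after their values were seen. Together they took 1.14 to 1.59% of all TPM in the controls and 0.211 to 0.526% in the OE libraries. Without them the ratio was 0.561 to 0.584 in the controls and 0.563 to 0.608 in the OE libraries, and the groups overlapped. Leaving out the most lowered genes of photosystem II alone moves the ratio in this direction by construction, so the overlap says nothing of what sets the difference.

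Of 26 antenna and nucleus-encoded core genes of photosystem I, 20 were lower and 1 was higher, with a median of -0.64. Of 33 of photosystem II, 21 were lower and 1 was higher, with a median of -0.69. The shares over all tested genes were 34.0% lower and 22.1% higher, with a median of -0.13. The ratio of photosystem I core to photosystem II core transcripts was 1.01 to 1.09 in the controls and 0.988 to 1.12 in the OE libraries. For antenna and core transcripts the ratio was 1.004 to 1.11 in the controls and 0.918 to 1.05 in the OE libraries, with overlap. Over these 59 genes together, 41 were lower (69.5%) and 2 higher, with a median of -0.67. After median ratio scaling 28 were lower, with a median of -0.50, beside 27.2% of all tested genes and a median of 0.02. Without control replicates 1 and 2, 24 were lower, beside 12.6% of all tested genes.

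**Figure D4:**
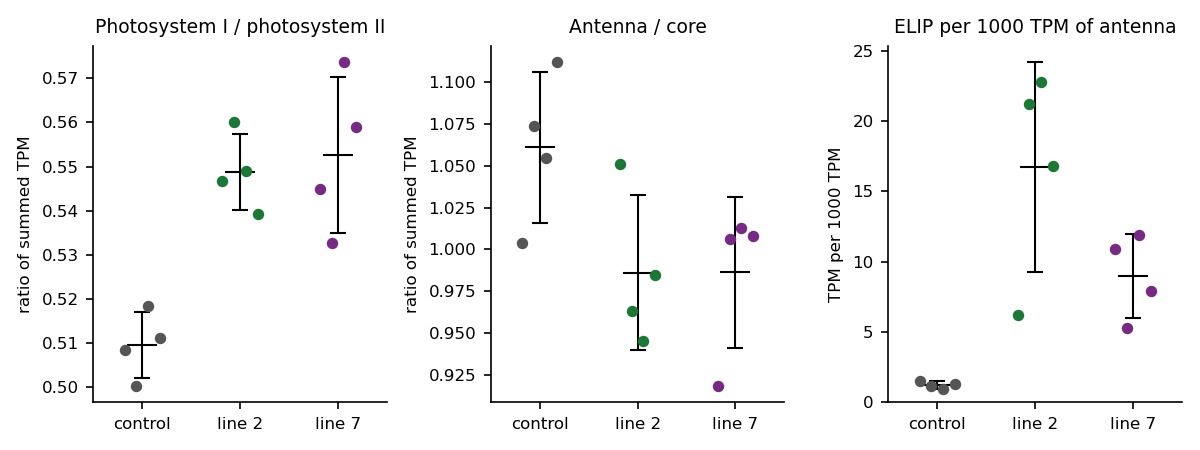
Ratios of summed TPM in each library, with the mean and SD of each group (n = 4): photosystem I to photosystem II, antenna to core, and ELIP TPM per 1000 TPM of antenna transcripts. The first 2 axes do not start at 0. Controls and OE libraries are apart in the first and last panel and overlap in the middle one.

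Poplar holds several copies of most subunits, and they did not all change alike. At 29 Arabidopsis loci with at least 2 tested nuclear copies, the difference in change between the copies with the lowest and the highest change had a median of -0.46. It was at least 1 on the log2 scale at 6 loci. At 10 loci the share of the copy with the lowest change in the sum of all copies did not overlap between controls and OE libraries. That copy was picked by its change in these same libraries. The difference is therefore negative, and the share tends to fall, by construction. No like count was made for loci outside these genes. The share of Potri.002G239700 in PSAL went from 18.5% ± 1.73 in the controls (SD, n = 4) to 7.55% ± 2.38 in the OE libraries (SD, n = 8). That of Potri.003G148900 in PSAF went from 22.3% ± 2.22 in the controls (SD, n = 4) to 11.1% ± 3.73 in the OE libraries (SD, n = 8), and that of Potri.002G189300 in LHCB1 from 13.6% ± 1.90 in the controls (SD, n = 4) to 5.17% ± 1.59 in the OE libraries (SD, n = 8).

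At PSBO and THF1 the more abundant of the 2 copies had the lower change. The share of Potri.007G033700 in PSBO went from 68.8% ± 0.964 in the controls (SD, n = 4) to 52.8% ± 3.78 in the OE libraries (SD, n = 8). That of Potri.019G117900 went from 69.9% ± 2.55 in the controls (SD, n = 4) to 51.5% ± 6.05 in the OE libraries (SD, n = 8) in THF1, also named PSB29, an Arabidopsis protein needed for thylakoid formation. At the THF1 locus the other copy, Potri.013G148400, did not pass (0.10, limma adjusted p = 0.627). Between the copies of lowest and highest change, the former was the less abundant in the controls at 16 of the 29 loci. These include ELIP1, where both copies compared rose. Across the 59 antenna and nucleus-encoded core genes, level in the controls and change were weakly related, with Spearman's rho of -0.06 and Pearson's r of -0.19 as a description over genes that share libraries. Copies close in sequence may exchange reads in the estimate, which bears on each of these shares.

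**Figure D5:**
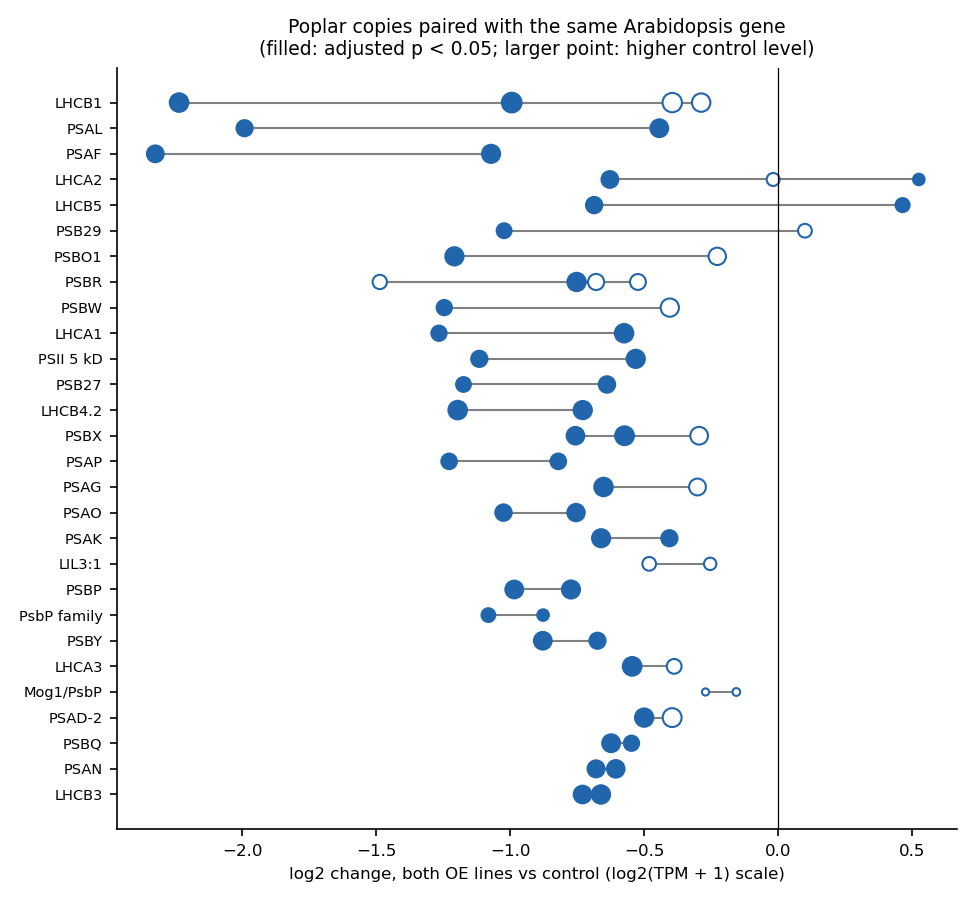
Log2 change of each poplar copy, as the pooled OE lines against the controls (log2(TPM + 1) scale), in 1 line per paired Arabidopsis gene and without the ELIP1 homologs. Filled points passed an adjusted p under 0.05 and larger points had a higher level in the controls. The widest gaps between copies are at LHCB1, PSAL and PSAF.

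A list of antenna regulators and insertion factors also took in sigma factors of the plastid RNA polymerase, GUN1 and GUN4. Of its 24 tested genes, 15 were lower (62.5%) and none was higher, with a median change of -0.56. Among all tested genes 34.0% were lower and 22.1% higher, with a median of -0.13. GLK1 is a transcription factor that activates nuclear photosynthesis genes in Arabidopsis. The GLK1 homolog Potri.T098900 was measured at 102, 109.7, 105 and 99.04 TPM in the controls, 39.7, 11.3, 19.5 and 10.8 TPM in line 2 and 25.1, 25.2, 24.8 and 18.7 TPM in line 7. All OE libraries lay far below the controls, with a change of -2.30 (SE 0.28, limma adjusted p = 8.05e-05). Another GLK1 homolog, Potri.007G136900, changed by -1.52 (SE 0.17, limma adjusted p = 4.43e-05), and Potri.017G015800 did not pass (-0.43, limma adjusted p = 0.0693). Potri.017G015800 passed as lower without line 2 replicate 3 or without line 7 replicate 4 (limma adjusted p of 0.0388 to 0.0407). The signal recognition particle subunit cpSRP54, which carries LHC proteins to the thylakoid, changed by -1.22 (SE 0.17, limma adjusted p = 0.000214) at Potri.016G078600. SIG1, a sigma factor of the plastid RNA polymerase, changed by -1.04 (SE 0.15, limma adjusted p = 0.000283) at Potri.013G075400.

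Of 21 tested genes for state transitions, cyclic electron flow and photoprotection, 14 were lower and 2 were higher, with a median of -0.75. These shares were 66.7% and 9.52%, beside 34.0% and 22.1% of all tested genes. This list shares the 2 CURT1B copies with the members. STN7, the kinase that phosphorylates LHCII in state transitions, was represented by Potri.008G116800, Potri.010G129466 and Potri.010G129532, which changed by -0.97 (SE 0.17, limma adjusted p = 0.000929), -1.67 (SE 0.20, limma adjusted p = 7.59e-05) and -1.36 (SE 0.20, limma adjusted p = 0.000323). The last 2 carry neighbouring identifiers, and the division of reads between them is uncertain. Zeaxanthin epoxidase, Potri.005G138400, which closes the xanthophyll cycle, stood at 53.3 ± 19.3 TPM in the controls (SD, n = 4) and 19.6 ± 3.90 TPM in the OE libraries (SD, n = 8), a change of -1.35 (SE 0.22, limma adjusted p = 0.00059).

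Between and after the photosystems, electrons pass through mobile carriers and the cytochrome b6f complex. Of 26 tested genes for cytochrome b6f, plastocyanin, ferredoxin, ferredoxin reductase and ATP synthase, 6 were lower and 4 higher. These shares, 23.1% and 15.4%, lay under the 34.0% and 22.1% of all tested genes. The median change was -0.14, beside -0.13 over all tested genes. The falls included 3 homologs of a small cytochrome b6f subunit, petM, at Potri.014G037000, Potri.002G130000 and Potri.009G108700, with changes of -0.90 (SE 0.11, limma adjusted p = 0.000119), -1.06 (SE 0.17, limma adjusted p = 0.000511) and -1.34 (SE 0.28, limma adjusted p = 0.00236). A ferredoxin paired with FED A, Potri.001G470700, was measured at 9.03, 14.4, 8.74 and 10.5 TPM in the controls, 19.2, 52.6, 46.1 and 60.1 TPM in line 2 and 32.9, 37.4, 36.4 and 34.96 TPM in line 7. It was higher in all OE libraries, with a change of 1.77 (SE 0.25, limma adjusted p = 0.000249). Among senescence markers, 4 of 14 were tested, 1 was lower and 1 higher, beside 34.0% and 22.1% of all tested genes. The NAC factor Potri.008G089000, paired with ANAC029, changed by 2.17 (SE 0.51, limma adjusted p = 0.00428), and NYE1, which removes magnesium from chlorophyll during its breakdown, changed by -0.85 (SE 0.32, limma adjusted p = 0.0394) at Potri.001G112600. The NYE1 call was lost under 11 of 21 alternatives, at limma adjusted p of 0.0503 to 0.128, and 8 of these leave out a single library (control replicate 2, 3 or 4, line 2 replicate 1, 2 or 3, line 7 replicate 1 or 4).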

How the data were processed

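RNA of poplar leaves was measured in 12 libraries, 4 from each of 3 groups. Per the labels' protocols, cDNA was primed with oligo(dT) and sequenced from DNA nanoballs. The deposited values are TPM, per the file headers, and the submitters' processing notes name cutadapt, FastQC and Salmon, with no version. Genome build and annotation were not given in the sources used here, and TPM keep no depth, so no counting interval is given. Salmon divides reads between similar transcripts.

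From these TPM, log2(TPM + 1) was computed for the 24926 of 34749 genes with at least 1 TPM in at least 4 of 12 libraries. A model with 3 groups was fitted over all of them with limma 3.58.1 in R 4.3.3 (eBayes with trend). The fitted contrasts were the averaged OE lines minus the controls, each line minus the controls, and line 7 minus line 2. Two-sided p-values were adjusted by Benjamini-Hochberg across the tested genes, and 0.05 was the threshold. Class sums, shares and ratios are descriptions without a test.

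The members, classes and lists were chosen with earlier results of these data known. Named genes are the 4 most abundant of each class, up to 2 higher and 2 lower of smallest adjusted p per class, all tested ELIP homologs, and 4 of smallest adjusted p per pathway list. Another 33 genes, mainly further copies and subunits, were named after their values were seen. No 2 libraries held identical values. Alternatives were 2 other pseudocounts, no filter, a stricter filter, 2 other scalings, a fit without trend, a replicate block, only the groups compared, and leaving out each library.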

Additional observations from a re-analysis of the deposited data

Results flagged for a closer look

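Of 336 groups of 4 libraries examined, 12 held a library whose gap to the nearest other was above Dixon's 95% critical value as a part of the group's range. Chance gives about 1 in 20 such groups. Among the controls, replicate 2 was low for the PSAD copy Potri.008G151600 at 4074 TPM (others 4897 to 5003 TPM), for the psbJ-paired Potri.017G066450 at 1.76 TPM (2.53 to 2.62 TPM) and for the summed nucleus-encoded core at 8.04% of all TPM (9.14% to 9.24%). Control replicate 1 was high for the THF1 copy Potri.019G117900 at 256 TPM (208 to 213 TPM).

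In line 2, replicate 1 was high for the PSAO copy Potri.009G160800 at 542 TPM (317 to 339.6 TPM). Replicate 4 was low for the LHCB4.3 copy Potri.008G067300 at 258 TPM (699.8 to 768 TPM). In line 7, replicate 4 was high for PSBP, Potri.005G206700, at 2431 TPM (2093 to 2149.8 TPM) and for the summed antenna at 6.04% of all TPM (5.48% to 5.54%). The same library was low for GLK1, Potri.T098900, at 18.7 TPM (24.8 to 25.2 TPM). Replicate 1 of line 7 was high for LHCB6, Potri.001G210000, at 1129 TPM (989 to 1008 TPM) and low for the ratio of antenna to core at 0.918 (1.006 to 1.013). Replicate 3 was low for the CURT1B copy Potri.002G180400 at 143 TPM (171 to 176 TPM).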

How the results depend on the processing

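For the pooled OE lines against the controls, the main counts were 60 lower and 10 higher. Leaving out each library in turn gave 44 to 65 lower and 6 to 10 higher, with 6 higher without control replicate 1 and 6 without control replicate 2. The ranges were 39 to 59 lower and 5 to 7 higher for line 2, and 32 to 60 lower and 6 to 9 higher for line 7. With control replicates 1 and 2 left out, chosen after seeing the data, 35 were lower and 5 higher in the pooled comparison. The shares of all tested genes were then 12.6% and 15.8%. In line 2, 29 were lower and 5 higher, beside 12.9% and 13.3% of all tested genes. In line 7, 18 were lower and 5 higher, beside 6.54% and 12.4%. This fit has fewer control samples. With median ratio scaling, 30 were lower in line 2 and 30 in line 7, beside 24.5% and 21.8% of all tested genes. In the pooled comparison, 8469 lower and 5511 higher genes in the whole table became 6780 and 7514 with this scaling. The cause was not tested. The other alternatives kept each count within 1.5 times, and line 7 against line 2 gave 0 throughout. Of 1740 refits of 83 named genes, 154 lost a call, 19 gained one and 0 reversed one. Of 67 named calls, 44 were kept throughout.

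The labels do not say whether replicate numbers pair the samples. Deviations of same-numbered libraries correlated at -0.47 to 0.41 over 12 pairs, with a median of 0.22. Those of different numbers correlated at -0.57 to 0.60 over 36, with a median of -0.08. The ranges overlapped, and whether equal numbers share a batch was not tested. With the replicate block, the pooled comparison gave 56 lower and 9 higher, of which 54 and 9 were shared with the fit without it. Fitting only the groups compared gives no other value for the mean of both lines. The block also gave LIL3, Potri.001G151300, a call as lower (limma adjusted p = 0.028). Depth is unknown, so no limit on low values could be set, and the 26 untested genes carry no call.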

Other observations

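The libraries of line 2 lay further apart in photosystem transcripts than those of line 7. Over the 59 antenna and nucleus-encoded core genes, the median SD of log2(TPM + 1) within a line was 0.46 in line 2 and 0.14 in line 7. Line 2 replicate 4 was the lowest of the 8 OE libraries for 50 of the 59 genes, and line 2 replicate 1 was the highest for 40. The libraries of line 7 were the lowest for 0 of the genes and the highest for 5. In the ELIP homologs the order was another one, since line 2 replicate 1 had the lowest summed ELIP level of its line, at 468 TPM, and replicate 3 the highest, at 1383 TPM. The difference in spread between the lines was not tested.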
